A study of Mus musculus with 12 samples.

Results

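The genes described here are 38 genes of mitosis and of the G2/M transition, chosen by symbol as a list of well-known cell-division genes and found as 38 of the 54532 rows of the deposited count table. The cells were E14 mouse embryonic stem cells, an established line, kept on gelatin with LIF and the kinase inhibitors PD0325901 and CHIR99021. Wild-type (WT), p53 KO and Dux KO cells were exposed for 6 h to doxorubicin (1 uM) or to DMSO vehicle, after which the medium was changed to one without drug. This gives 6 groups of 2 libraries of poly(A)-selected RNA. The WT libraries come from E14 cells with no knockout label, whereas library 1 and library 2 of each knockout come from 2 separately numbered lines, so the spread in a knockout group holds the difference between lines. The time between drug removal and harvest was not given in the sources used here.

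A cell enters mitosis when Cdk1, bound to cyclin A or cyclin B, is freed from inhibitory phosphate by the Cdc25 phosphatases, and Plk1 and the Aurora kinases then drive spindle assembly. The spindle checkpoint holds Cdc20, the activator of the anaphase-promoting complex, until all centromeres are attached, after which separase cuts cohesin and the cell divides. Most genes of this programme are transcribed in G2 through the MuvB complex, B-Myb and Foxm1, and a DNA element named the cell cycle genes homology region (CHR). Doxorubicin is a topoisomerase II poison that breaks DNA and activates p53. Dux is a transcription factor of the early embryo that turns on 2-cell-stage genes.

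The promoters of the 3 members that fell most and the 3 that rose most in WT cells are shown because these genes are all members of the same programme and moved in opposite directions. They are RefSeq promoters of build GRCm38.p6, from 250 bases before to 50 bases after the gene's start, written 5′ to 3′ on the gene's strand. Capitals mark the letters TTTGAA or TTCGAA, or their reverse complement, which are forms of the CHR, and CCAAT or its reverse complement ATTGG, the core of the NF-Y element. The first 3 genes fell and the last 3 rose.
Plk1 (chr7:122159185-122159484, plus strand): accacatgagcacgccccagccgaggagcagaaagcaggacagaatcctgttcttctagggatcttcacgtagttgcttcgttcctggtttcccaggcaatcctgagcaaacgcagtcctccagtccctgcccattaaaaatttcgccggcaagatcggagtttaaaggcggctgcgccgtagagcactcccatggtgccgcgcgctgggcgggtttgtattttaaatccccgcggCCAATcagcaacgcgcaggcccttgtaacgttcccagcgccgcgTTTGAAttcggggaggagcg
Cdk1 (chr10:69352863-69353162, minus strand): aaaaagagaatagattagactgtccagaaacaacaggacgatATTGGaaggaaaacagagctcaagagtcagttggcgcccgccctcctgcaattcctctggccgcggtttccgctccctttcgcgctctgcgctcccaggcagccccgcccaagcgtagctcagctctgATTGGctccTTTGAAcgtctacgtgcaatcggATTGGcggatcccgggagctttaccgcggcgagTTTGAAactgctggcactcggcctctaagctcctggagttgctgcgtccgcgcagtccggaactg
Cenpf (chr1:189688037-189688336, minus strand): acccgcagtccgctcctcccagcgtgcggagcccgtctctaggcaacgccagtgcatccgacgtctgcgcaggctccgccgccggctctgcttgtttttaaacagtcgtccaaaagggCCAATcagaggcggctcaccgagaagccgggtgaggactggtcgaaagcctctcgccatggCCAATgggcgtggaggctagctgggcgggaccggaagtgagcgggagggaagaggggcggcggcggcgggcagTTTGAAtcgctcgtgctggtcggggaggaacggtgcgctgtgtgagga
Cdc25b (chr2:131186698-131186997, plus strand): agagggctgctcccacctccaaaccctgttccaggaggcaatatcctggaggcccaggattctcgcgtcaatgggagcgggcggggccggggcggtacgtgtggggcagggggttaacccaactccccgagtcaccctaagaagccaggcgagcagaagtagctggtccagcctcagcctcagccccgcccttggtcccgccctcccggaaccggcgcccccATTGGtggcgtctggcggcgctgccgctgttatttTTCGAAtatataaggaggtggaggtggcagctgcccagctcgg
Cdc20 (chr4:118437294-118437593, minus strand): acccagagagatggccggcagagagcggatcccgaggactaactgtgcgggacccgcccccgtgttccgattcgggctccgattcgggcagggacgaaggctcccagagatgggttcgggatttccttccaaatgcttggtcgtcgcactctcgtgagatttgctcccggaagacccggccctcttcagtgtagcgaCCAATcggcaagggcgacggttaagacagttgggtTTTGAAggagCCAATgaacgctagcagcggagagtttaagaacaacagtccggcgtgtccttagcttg
Cenpe (chr3:135212313-135212612, plus strand): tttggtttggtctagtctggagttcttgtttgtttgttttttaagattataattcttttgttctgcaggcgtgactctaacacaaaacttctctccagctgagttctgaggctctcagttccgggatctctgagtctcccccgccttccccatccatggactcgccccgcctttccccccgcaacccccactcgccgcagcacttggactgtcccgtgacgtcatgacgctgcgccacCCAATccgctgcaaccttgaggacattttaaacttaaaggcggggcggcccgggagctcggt

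CHR letters stood in 5 of these 6 windows, on both sides of the contrast, and CCAAT letters in all 6. Plk1 had TTTGAA with its first base 31 bases after the start, Cdk1 had it 71 and 15 bases before the start, and Cdc20 had it 18 bases before the start. Cdc25b had TTCGAA 8 bases after the start, and the Cenpe window held no CHR letters. Of the 38 members, 32 had a promoter entry. CHR letters were found in 13 of 14 members that fell in WT (92.9%), in 2 of 3 that rose (66.7%), in 9 of 15 that did not pass the test (60.0%) and in 21.7% of 27025 genes of the whole table. CCAAT letters were found in 11 of those 14 (78.6%), 3 of 3, 11 of 15 (73.3%) and 41.1% of all genes. Both motifs were searched on both strands. They can share an end base, which none of the matches printed above do, and a match is a description of letters, not a binding site.

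Levels are CPM, counts relative to library size scaled by TMM, a scaling that assumes most genes change little. Total counts ran from 23270358 to 56795858 per library, and members had between 550 and 20857 counts in a library. The count column of the second Dux KO vehicle library repeats that of the first Dux KO drug library in 54532 of 54532 genes, and was left out. Its reads were recovered from its own FPKM column and are shown as the recovered library. Dux KO tests therefore rest on 1 vehicle library, whose spread is taken from the other groups. Duxf3, the mouse Dux gene, had 0 reads in all 4 Dux KO libraries and 670 and 685 reads in the WT drug libraries. Trp53, which encodes p53, stood at 193.2 and 158.8 CPM in WT vehicle libraries and at 72.4 and 39.8 CPM in p53 KO vehicle libraries, and the labels do not say which stretch of the gene was removed. Summed markers of embryonic stem cells, 8 of 8 detected in every group, went from 4641 to 4642 CPM in WT vehicle to 825 to 949 CPM in WT drug libraries, from 4274 to 4554 to 2176 to 2829 CPM in p53 KO, and from 4085 to 5414 to 1738 to 1916 CPM in Dux KO. The sum of 6 markers of the 2-cell-like state went from 2.53 to 3.63 CPM to 1051 to 1266 CPM in WT, stood at 21.6 to 23.2 CPM and 14.9 to 52.3 CPM in p53 KO, and was at most 0.0776 CPM in Dux KO, where all 6 were at 0 under drug. In WT the summed fibroblast markers (7) went from 4.79 to 6.06 CPM to 26.6 to 29.7 CPM, primitive endoderm markers (4) from 5.2 to 5.39 CPM to 24.9 to 26.2 CPM, and trophectoderm markers (5) from 21.6 to 21.9 CPM to 65.6 to 99.9 CPM, and 3, 3 and 4 of them were called higher. The fibroblast sum under drug was 11.5 to 16.9 CPM in Dux KO (vehicle 2.33 to 2.87). In p53 KO it was 10.1 to 10.4 CPM (vehicle 5.92 to 6.19). The primitive endoderm sum was 12.7 to 14.5 CPM in Dux KO (vehicle 2.73 to 2.87). In p53 KO it was 7.63 to 9.41 CPM (vehicle 3.66 to 4.9). Trophectoderm sums overlapped in both knockouts. Col3a1, Dcn, Lum and Postn lay at or below 0.357 CPM everywhere. The part of these shifts in the results below was not tested, and in bulk RNA fewer dividing cells and less RNA per cell cannot be told apart.

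In WT cells doxorubicin lowered 15 of the 38 members and raised 4, while 19 did not pass the test (edgeR's quasi-likelihood test, Benjamini-Hochberg adjusted p under 0.05 over 28643 genes). Over all genes tested, 23.4% were called lower, 29% higher and 52.4% either way, so the share of members called (50%) was near the background. The share called lower was 39.5%, and the share called higher was 10.5%. The members' median log2 change was -0.34, against 0.13 over all genes. On log2(FPKM + 0.1) it was -0.30, against -0.24 over the 14614 genes kept on that scale, so the gap depends on the scale and genes used. In 29 members both drug libraries lay below both vehicle libraries, in 7 both lay above and in 2 the groups overlapped, while over all genes tested 38.9% lay below and 45.1% above. With the replicate line as a block, 24 members were called lower and 6 higher. All WT libraries take the same level of the block, so within WT it changes the estimate of spread and pairs no libraries. Shares called over all genes are given for the main edgeR fit at adjusted p only. They are not given for the block, DESeq2 or unadjusted p, so those counts have no background beside them. A member that did not pass the test is not shown to be unchanged, since most members' changes are only a few times their error. Without WT vehicle library b the calls fell to 8 lower and 1 higher, and without vehicle library a or drug library b 2 were called higher.

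**Figure D1:**
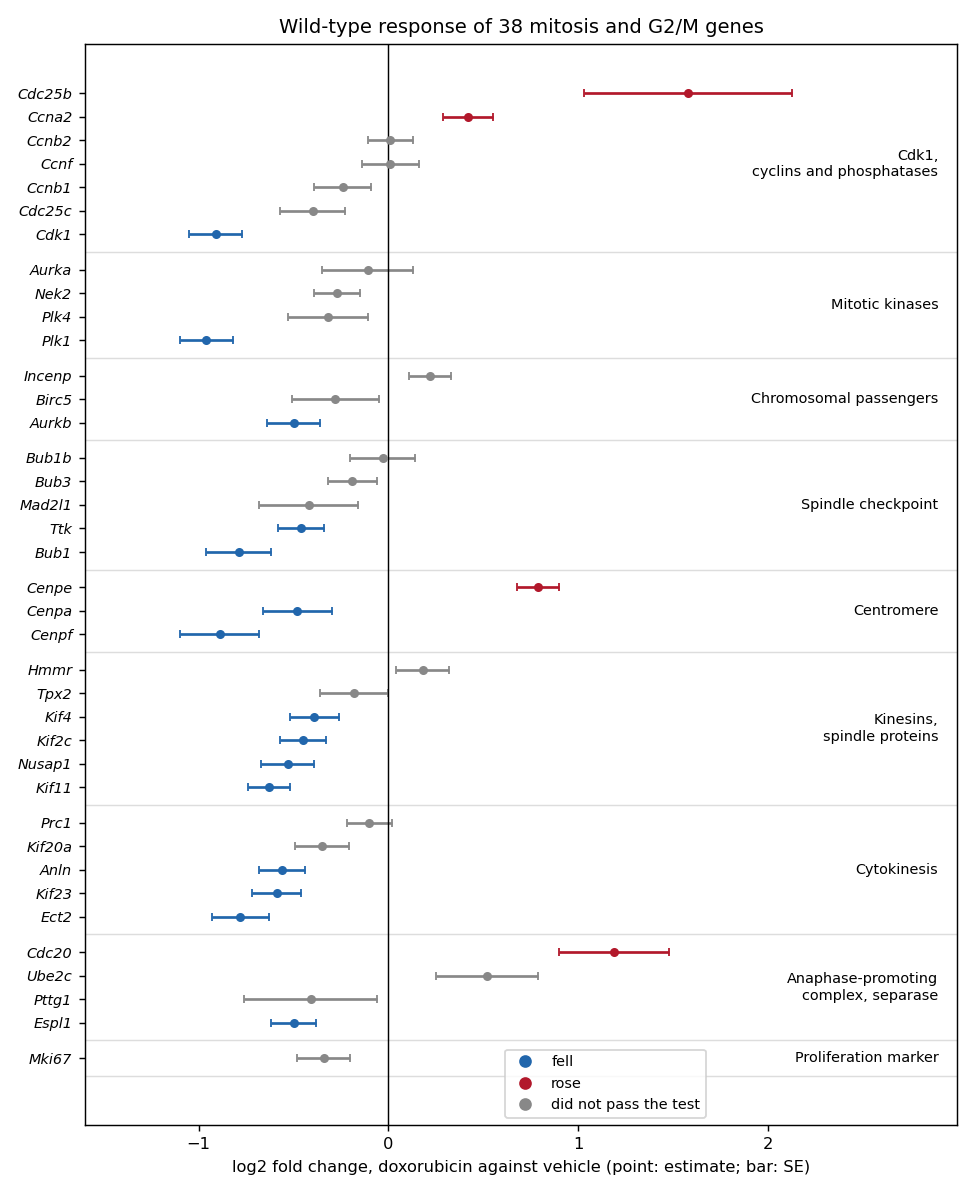
Log2 fold change with doxorubicin in wild-type cells (x axis) for the 38 members grouped by role, with the standard error as a bar. Plk1, Cdk1 and Cenpf lie lowest near -0.9, and Cdc25b, Cdc20 and Cenpe stand alone on the right.

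The kinase Cdk1 and its regulators split. Cdk1, the kinase that drives mitotic entry, was at 271 and 289 CPM in vehicle libraries a and b and 152 and 146 CPM in drug libraries a and b, a log2 change of -0.91 ± 0.14 (SE, adjusted p = 0.00071). Its partner Ccna2 (cyclin A2) went the other way, from 228 and 233 to 292 and 323 CPM (0.42 ± 0.13, adjusted p = 0.022). Neither pair of groups overlapped. Cdc25b, a phosphatase that activates Cdk1, was at 22.7 and 23.3 CPM under vehicle and 67.6 and 70.4 CPM under drug (1.58 ± 0.55, adjusted p = 0.038). Its WT libraries were close to each other, while the p53 KO lines differ widely for this gene and all groups share 1 estimate of spread. That call was lost when any 1 of the 4 WT libraries was left out (adjusted p from 0.097 to 0.14) or either Dux KO drug library (adjusted p = 0.06), and Ccna2 lost its call without either vehicle library or drug library b (adjusted p from 0.09 to 0.27). Ccnb1 (cyclin B1), the partner of Cdk1 in mitosis proper, was at 163 and 175 CPM and then 146 and 140 CPM (-0.24 ± 0.15, adjusted p = 0.2), and Ccnb2, Ccnf and Cdc25c did not pass the test either. Of the Ccna2 exonic bases, 12.5% are shared with the neighbouring gene Exosc9, and 23.4% of the 50-base words of Ccnb1 recur in its pseudogenes, so reads of those genes may be split or merged.

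Among the mitotic kinases Plk1, needed for centrosome maturation and mitotic entry, fell most of all 38 members. It was at 148 and 139 CPM under vehicle and 75.3 and 72.2 CPM under drug (-0.96 ± 0.14, adjusted p = 0.0005), and 10.4% of its 50-base words recur elsewhere, chiefly in a pseudogene. Aurka, the centrosomal Aurora kinase, was at 118 and 113 CPM and then 108 and 107 CPM (-0.11 ± 0.24, adjusted p = 0.72). Aurkb, the kinase of the chromosomal passenger complex, fell from 73.7 and 71.5 to 56 and 47 CPM (-0.50 ± 0.14, adjusted p = 0.018). Its call was lost without either vehicle library or drug library b (adjusted p from 0.059 to 0.087). The other passengers Birc5 and Incenp, and the kinases Nek2 and Plk4, did not pass the test.

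Of 5 spindle checkpoint genes, 2 fell. Bub1, a checkpoint kinase at the kinetochore, went from 188 and 207 CPM to 116 and 113 CPM (-0.79 ± 0.17, adjusted p = 0.0042), and Ttk, the kinase that starts checkpoint signalling, changed by -0.46 and lost its call without vehicle library b (adjusted p = 0.058). Bub1b (BubR1), an inhibitor of the anaphase-promoting complex, was at 242 and 242 CPM and then 234 and 240 CPM (-0.03 ± 0.17, adjusted p = 0.9). Bub3 and Mad2l1 did not pass the test, and Bub3 lies within the annotated span of Fgfr2.

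The centromere genes went both ways. Cenpf, a kinetochore protein of the corona, fell from 256 and 309 to 146 and 159 CPM (-0.89 ± 0.21, adjusted p = 0.0072), and its call was lost without vehicle library b (adjusted p = 0.057) or drug library a (adjusted p = 0.053). Cenpe, the kinesin of the same corona that moves chromosomes to the spindle equator, rose from 121 and 131 to 208 and 229 CPM (0.79 ± 0.11, adjusted p = 0.00049) and was called in all 21 alternatives. Cenpa, the centromeric histone, changed by -0.48 ± 0.18 (adjusted p = 0.046), the weakest of the 15 calls, which was kept in 8 of 21 alternatives and lost without any 1 WT library (adjusted p from 0.091 to 0.19).

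Of 6 kinesins and spindle proteins, 4 fell and none rose. Kif11, the motor that pushes spindle poles apart, went from 213 and 218 to 137 and 141 CPM (-0.63 ± 0.11, adjusted p = 0.0015), and Nusap1, a microtubule bundler, from 138 and 146 to 98.5 and 98 CPM (-0.53 ± 0.14, adjusted p = 0.011). Kif2c, which takes microtubules apart, changed by -0.45, and Kif4, a chromosome-bound motor, by -0.39. Nusap1 and Kif2c lost their calls without vehicle library b or drug library a (adjusted p from 0.055 to 0.077). The Kif4 call was lost in 10 of 21 alternatives, among them leaving out any 1 WT library (adjusted p from 0.059 to 0.19), and 15.1% of its exonic bases are shared with Pdzd11. Hmmr and Tpx2 did not pass the test.

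Of 5 cytokinesis genes, 3 fell. Ect2, which activates RhoA at the cleavage furrow, went from 228 and 226 to 128 and 136 CPM (-0.78 ± 0.15, adjusted p = 0.0024). Anln (anillin), the scaffold of the contractile ring, went from 358 and 394 to 242 and 269 CPM (-0.56 ± 0.12, adjusted p = 0.005), and Kif23, the motor of centralspindlin, from 162 and 173 to 110 and 113 CPM (-0.59 ± 0.13, adjusted p = 0.0043). The 3 genes kept their call in all 21 alternatives. Prc1 and Kif20a did not pass the test, and 29.3% of the Kif20a exonic bases are shared with Cdc23.

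Genes of mitotic exit split again. Cdc20 rose from 195 and 161 to 388 and 427 CPM (1.19 ± 0.29, adjusted p = 0.0072), and its call was lost without vehicle library b (adjusted p = 0.063). Espl1 (separase) fell from 137 and 122 to 92.4 and 91.1 CPM (-0.50 ± 0.12, adjusted p = 0.0077), a call lost without vehicle library a (adjusted p = 0.069). Ube2c, the ubiquitin-conjugating enzyme that works with Cdc20, was at 188 and 156 CPM and then 248 and 246 CPM (0.52 ± 0.27, adjusted p = 0.13), with 22.8% of its exonic bases shared with Tnnc2. Pttg1 (securin) did not pass the test. The proliferation marker Mki67 was at 272 and 302 CPM and then 208 and 247 CPM (-0.34 ± 0.14, adjusted p = 0.078).

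**Figure D2:**
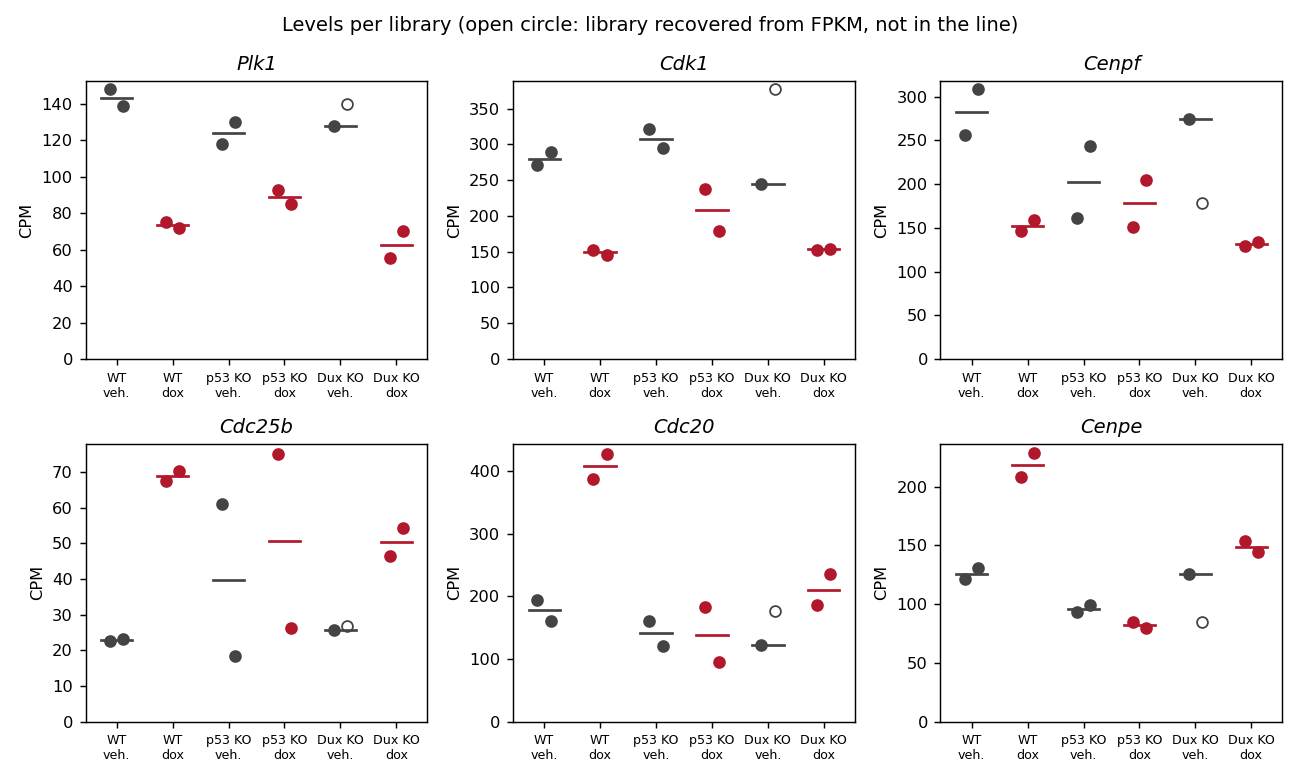
CPM per library (y axis, linear from 0) in the 6 groups for the 3 members that fell most and the 3 that rose most in wild type, where each point is a library, the line is the group mean and the open circle is the recovered Dux KO vehicle library. Cenpe is above its vehicle level under drug in wild type (208 and 229 CPM) and below it in p53 KO (84.7 and 79.5 CPM).

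The authors' deposited table, made with DESeq2 on the same WT libraries, called 30 of the 38 members, 7 higher and 23 lower. The share of all genes it called is not given here. The sign was that of the edgeR fit in 37 of 38 members, and 19 were called in both. Since both come from the same libraries, this is no independent repeat. In the authors' deposited table the log2 change was -0.93 for Plk1, -0.88 for Cdk1, 1.23 for Cdc20 and 0.82 for Cenpe.

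In p53 KO cells 12 members fell and none rose in the edgeR fit, where 8.09% of all genes were called lower, 9.31% higher and 17.4% either way. At an unadjusted p under 0.05, 17 members were lower and 0 higher, and DESeq2 called 15 lower and 0 higher. The median change was -0.32, against 0.18 over all genes. On log2(FPKM + 0.1) the median was -0.01, against 0.22 over 14614 genes. The count depends on the scale. The FPKM columns carry a log2 shift of 0.31 towards the drug libraries against the TMM scale in this genotype (0.04 in WT), and on log2(FPKM + 1) limma called only Anln lower, with a member median of -0.01. With the line as a block 21 members were called lower and Cdc25b higher. Both drug libraries lay below both vehicle libraries in 22 members, above in 1 (Espl1), and the groups overlapped in 15, while over all genes tested 20.8% lay below and 31.3% above.

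Cytokinesis and spindle checkpoint genes were among those that fell. Anln went from 416 and 476 CPM to 187 and 190 CPM (-1.24 ± 0.13, adjusted p = 0.0017) and was the 1 member called in all 21 alternatives. Ect2 went from 199 and 247 to 104 and 132 CPM (-0.92 ± 0.15, adjusted p = 0.006), and Kif23 from 214 and 178 to 132 and 117 CPM (-0.66 ± 0.13, adjusted p = 0.011). None of these groups overlapped. The checkpoint genes Bub1b (304 and 264 to 193 and 131 CPM, -0.81 ± 0.17, adjusted p = 0.015) and Bub1 (380 and 325 to 254 and 181 CPM, -0.70 ± 0.17, adjusted p = 0.024) fell as well, and so did Ttk. Bub1b lost its call without p53 KO vehicle library 1 (adjusted p = 0.051), and Bub1 without that library (adjusted p = 0.084) or without drug library 2 (adjusted p = 0.056).

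Cdk1 went from 321 and 295 to 237 and 179 CPM in p53 KO (-0.57 ± 0.14, adjusted p = 0.026) and Plk1 from 118 and 130 to 92.9 and 85.2 CPM (-0.48 ± 0.14, adjusted p = 0.045). Plk1 lost its call in 12 of 21 alternatives and Cdk1 in 9, among them, for Plk1, leaving out any 1 of the 4 p53 KO libraries (adjusted p from 0.054 to 0.14), and for Cdk1 leaving out vehicle library 1 (adjusted p = 0.082) or drug library 2 (adjusted p = 0.063). Mki67 went from 289 and 283 to 181 and 217 CPM (-0.53 ± 0.14, adjusted p = 0.037), and its call was lost in 12 of 21 alternatives. Leaving out either vehicle library or drug library 1 ended it (adjusted p from 0.082 to 0.11). Kif11, Hmmr and Kif4 were the other 3 members that fell, and Hmmr lost its call without vehicle library 1 (adjusted p = 0.066) and Kif4 without vehicle library 2 (adjusted p = 0.057).

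None of the 4 members that rose in WT passed the test in p53 KO, while the fit with the line as a block called Cdc25b higher. Over all genes 9.31% were called higher in p53 KO. The share among all genes that rose in WT is not given, so the count for these 4 has no background beside it. Cdc20 was at 161 and 121 CPM under vehicle and 183 and 94.6 CPM under drug, Cenpe at 93.4 and 98.9 and then 84.7 and 79.5 CPM, and Ccna2 at 189 and 224 and then 162 and 186 CPM. Cdc25b was at 61 and 18.3 CPM in vehicle libraries 1 and 2 and at 75.1 and 26.4 CPM in the drug libraries, so that the lines differed more than the treatments. Within each line the drug library was higher for Cdc25b, and both groups overlapped.

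The difference between the p53 KO and WT responses passed the test in 6 members, 5 lower and 1 higher in p53 KO (background 10.3% lower, 9.9% higher and 20.2% either way). Cenpe differed by -1.02 ± 0.16 (adjusted p = 0.003), Hmmr, a spindle-associated hyaluronan receptor, by -0.81 ± 0.20 (adjusted p = 0.021), Bub1b by -0.78 ± 0.24 (adjusted p = 0.049), Anln by -0.69 ± 0.17 (adjusted p = 0.024) and Ccna2 by -0.66 ± 0.18 (adjusted p = 0.032). For Cenpe and Ccna2 a rise in WT faced values of -0.23 and -0.24 in p53 KO that did not pass the test. Anln fell in both genotypes, and further in p53 KO. Hmmr was at 229 and 247 CPM and then 256 and 282 CPM in WT, and at 205 and 177 CPM and then 137 and 109 CPM in p53 KO. Espl1, the member that differed upward (0.64 ± 0.17, adjusted p = 0.028), fell in WT and was at 141 and 164 CPM and then 166 and 172 CPM in p53 KO.

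Other differences were as large but less certain. Cdc20 differed by -1.22 ± 0.40 (adjusted p = 0.062) and Cdc25b by -1.23 ± 0.77 (adjusted p = 0.31). With RLE, another scaling, Cdc20 passed (adjusted p = 0.039) and Espl1 did not (adjusted p = 0.064). The counts moved with the setting: with the line as a block 8 members were lower and 4 higher, and on log2(FPKM + 1) 2 were lower (Cenpe and Hmmr) and 5 higher (Nek2, Kif2c, Plk1, Aurkb and Espl1), named after their values were seen. The FPKM scale shifts this difference by 0.27, and RLE scaling shifts the median of all genes by -0.122. None of the 6 calls was kept in all 21 alternatives, and Cenpe was kept in 19. Leaving out 1 library ended the calls of Bub1b, Ccna2, Anln, Hmmr and Espl1, for each of them without WT vehicle library a or b among others (adjusted p from 0.059 to 0.14). Without WT vehicle library a, vehicle library b or drug library b only 1 member was called lower.

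**Figure D3:**
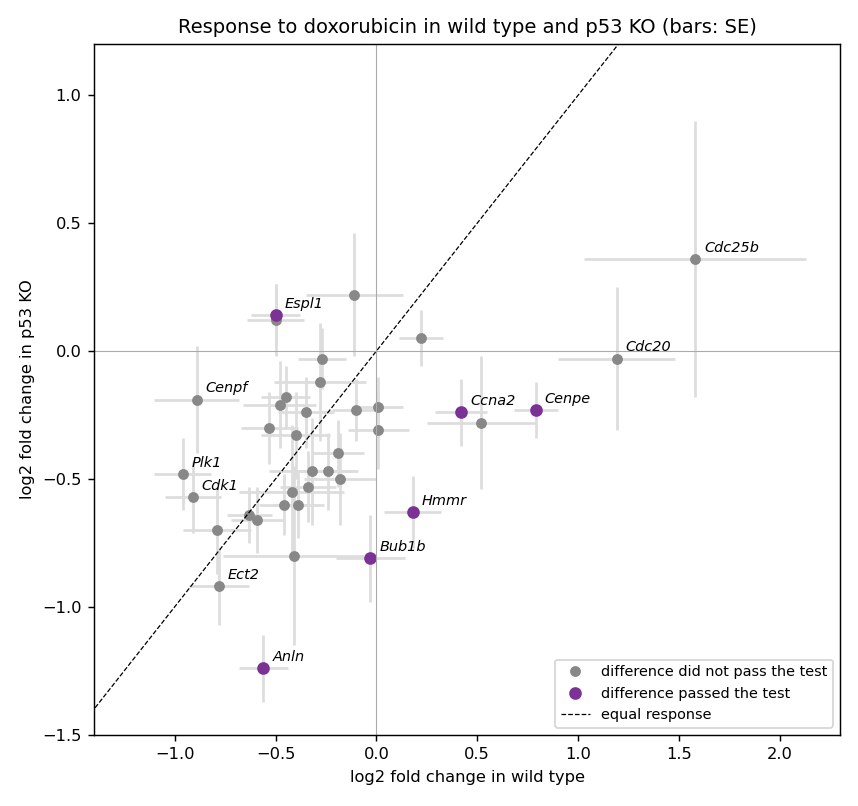
Log2 fold change with doxorubicin in wild type (x axis) and p53 KO (y axis) for the 38 members, with standard errors and a dashed line of equal response. Cenpe, Ccna2, Hmmr, Bub1b and Anln lie below the line, and Espl1 above it.

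In Dux KO cells 9 members fell and none rose in the edgeR fit (background 11.9% lower, 14.5% higher and 26.5% either way). At an unadjusted p under 0.05, 11 were lower and 1 higher, and DESeq2 called 10 lower and Aurkb higher. The median was -0.23, against 0.00 over all genes, and -0.03 on log2(FPKM + 1), whose scale shifts this response by 0.28. On log2(FPKM + 0.1) the members' median was -0.04, against 0.00 over 14614 genes. On log2(FPKM + 1) Kif2c, Plk1, Cdk1 and Kif23 were called lower and Cenpe, Aurkb and Incenp higher, named after their values were seen. With the line as a block and the recovered library 19 were called lower and 3 (Cdc25b, Cenpe and Cdc20) higher. In 26 members both drug libraries lay below both vehicle libraries, the recovered one included, in 5 they lay above and in 7 the groups overlapped, while over all genes tested 33.2% lay below and 33.6% above.

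Plk1 was at 128 CPM in vehicle library 1, 140 CPM in the recovered library and 55.3 and 70.3 CPM under drug (-1.03 ± 0.16, adjusted p = 0.0023). Kif23 was at 210 and, recovered, 210 CPM and then 117 and 123 CPM (-0.81 ± 0.15, adjusted p = 0.0048). Plk1 and Kif23 kept their call in all 20 alternatives. Cdk1 was at 245 and, recovered, 377 CPM and then 153 and 154 CPM (-0.68 ± 0.17, adjusted p = 0.017), and with the recovered library in place of library 1 its change was -1.29. Cdk1 lost its call without either drug library (adjusted p = 0.07 and 0.075).

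Cenpf, Mki67 and Kif11 depended on the vehicle library. Cenpf was at 274 and, recovered, 178 CPM and then 129 and 134 CPM, a change of -1.05 ± 0.25 (adjusted p = 0.014) with library 1 and -0.43 (adjusted p = 0.23) with the recovered library alone. Its call was also lost without either drug library (adjusted p = 0.068 and 0.066). Mki67 was at 405 and, recovered, 214 CPM and then 289 and 248 CPM, which gave -0.59 ± 0.17 (adjusted p = 0.033) with library 1, -0.22 with both and 0.33 (adjusted p = 0.2) with the recovered library alone. No direction can be given for Mki67 in Dux KO. Kif11 changed by -0.51 (adjusted p = 0.022) with library 1, -0.38 (adjusted p = 0.062) with both and -0.22 (adjusted p = 0.25) with the recovered library alone. Ect2, at 172 and, recovered, 148 CPM and then 93.2 and 102 CPM (-0.82 ± 0.18, adjusted p = 0.0097), kept its direction with either vehicle library, and its call was lost without drug library 1 (adjusted p = 0.057). Kif2c and Nek2 fell as well, and without drug library 1 or 2 only 3 or 4 members were called lower.

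**Figure D4:**
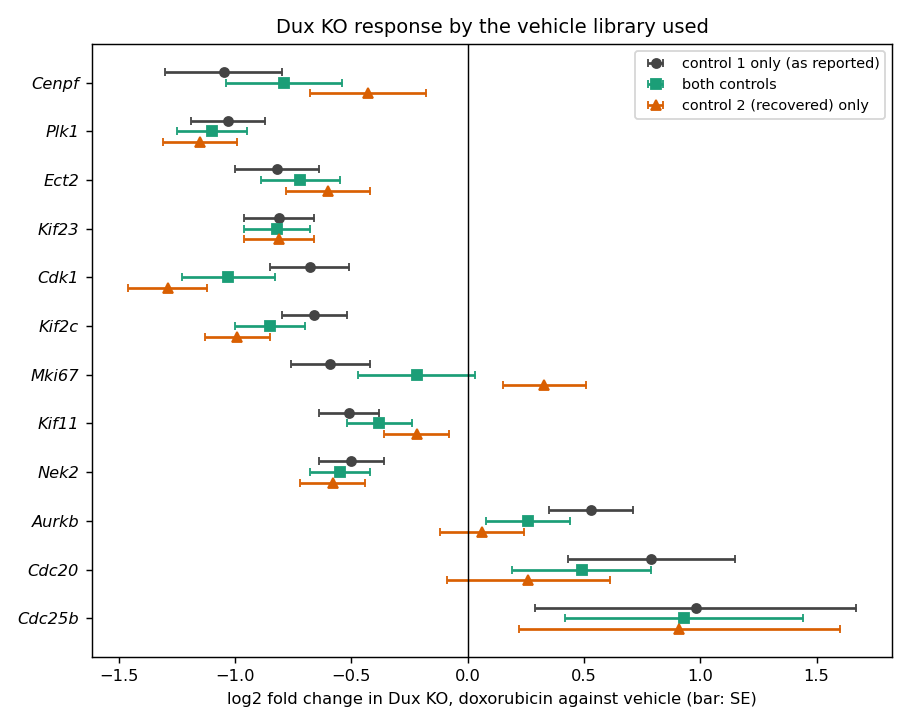
Log2 fold change with doxorubicin in Dux KO (x axis, bars are standard errors) with vehicle library 1, both vehicle libraries or the recovered library alone, for the 9 members that fell and for Aurkb, Cdc20 and Cdc25b. Mki67 crosses 0, from -0.59 to 0.33, and Plk1 and Kif23 hardly move.

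Of the 4 members that rose in WT, 3 stood higher under drug in Dux KO and Ccna2 stood lower, none passing the test. Over all genes 14.5% were called higher in Dux KO, and the share among all genes that rose in WT is not given. Cdc25b was at 25.6 and, recovered, 26.9 CPM and then 46.6 and 54.2 CPM (0.98 ± 0.69, adjusted p = 0.34), Cdc20 at 122 and, recovered, 177 CPM and then 187 and 235 CPM (0.79 ± 0.36, adjusted p = 0.14), and Cenpe at 126 and, recovered, 84.7 CPM and then 154 and 144 CPM (0.24 ± 0.14, adjusted p = 0.24). In none of these 3 did drug and vehicle libraries overlap. Ccna2 was at 246 and, recovered, 250 CPM and then 221 and 217 CPM. The difference between the Dux KO and WT responses passed the test in 1 member, Aurkb, and no member was lower (background 2.1% higher, 3.15% lower and 5.25% either way). Unadjusted p under 0.05 gave 1 member higher and 2 lower, and DESeq2 also called Ccna2 and Cenpe lower. With the line as a block, Dux KO drug library 2 is taken up by the line term. The Dux KO response is then drug library 1 against vehicle library 1, and calls of that fit rest on 1 library against 1.

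Aurkb was at 71.1 and, recovered, 98.7 CPM under vehicle and 103 and 102 CPM under drug in Dux KO, against the fall in WT, a difference of 1.02 ± 0.23 (adjusted p = 0.039). With both vehicle libraries it was 0.75 (adjusted p = 0.15) and with the recovered library alone 0.55 (adjusted p = 0.25), so the call rests on vehicle library 1. Leaving out any 1 of the 4 WT libraries or either Dux KO drug library also ended it (adjusted p from 0.061 to 0.13).

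Of the 15 members that fell in WT, 9 fell in p53 KO (60% of 15 and 75% of the 12) and 7 in Dux KO (46.7% of 15 and 77.8% of the 9). Over all genes tested, those that fell in both were 26.2% of the WT falls and 75.6% of the p53 KO falls, and 39.7% of the WT falls and 77.8% of the Dux KO falls. Cdk1, Ect2, Kif11, Kif23 and Plk1 were called lower in all 3 genotypes in the main edgeR fit. On log2(FPKM + 1) none of them was called in p53 KO, where Plk1 lost its call in 12 of 21 alternatives. The Kif11 call in Dux KO was lost with the recovered library. Shares of all genes called lower in all 3 genotypes, or called in none, are not given. The members that passed no response test were 15, namely Aurka, Birc5, Bub3, Ccnb1, Ccnb2, Ccnf, Cdc25c, Incenp, Kif20a, Mad2l1, Plk4, Prc1, Pttg1, Tpx2 and Ube2c. Aurka was at 152 and 107 CPM and then 190 and 112 CPM in p53 KO, and at 87.6 and, recovered, 106 CPM and then 69.4 and 81.3 CPM in Dux KO. Ccnb1 was at 172 and 149 CPM and then 133 and 99.2 CPM in p53 KO. In Dux KO it was at 130 and, recovered, 173 CPM and then 115 and 114 CPM. Its drug libraries lay below vehicle in all 3 genotypes, as did those of Cdc25c, Bub3 and Tpx2 among other members. The share of all genes that did so is not given.

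Ratios between members within a library do not depend on how libraries are scaled, and were chosen after the values were seen. Each sets a member that rose in WT over one that fell in WT, so the separation in WT follows from that choice. Ratios of other pairs of genes are not given, so these have no background beside them. Their level depends on gene length, so only the change between libraries is read. The ratio of Cdc20 to Plk1 was 1.32 and 1.15 in WT vehicle libraries and 5.15 and 5.92 under drug, 1.37 and 0.933 and then 1.97 and 1.11 in p53 KO, and 0.957 and, recovered, 1.27 and then 3.38 and 3.35 in Dux KO. Drug and vehicle libraries were far apart in WT and Dux KO and overlapped in p53 KO, where the drug library was the higher within each line. The ratio of Cenpe to Cenpf was 0.473 and 0.425 and then 1.43 and 1.44 in WT, 0.579 and 0.405 and then 0.561 and 0.388 in p53 KO, and 0.461 and, recovered, 0.476 and then 1.19 and 1.07 in Dux KO. The ratio of Ccna2 to Cdk1 was 0.84 and 0.805 and then 1.93 and 2.22 in WT, 0.587 and 0.758 and then 0.683 and 1.04 in p53 KO, and 1 and, recovered, 0.662 and then 1.44 and 1.41 in Dux KO. Within each p53 KO line the ratios of Ccna2 to Cdk1 and of Cdc25b to Cdk1 were higher under drug too, and that of Cenpe to Cenpf was lower. With 2 libraries against 2, no permutation test of a single ratio can pass 0.05, and none was run.

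**Figure D5:**
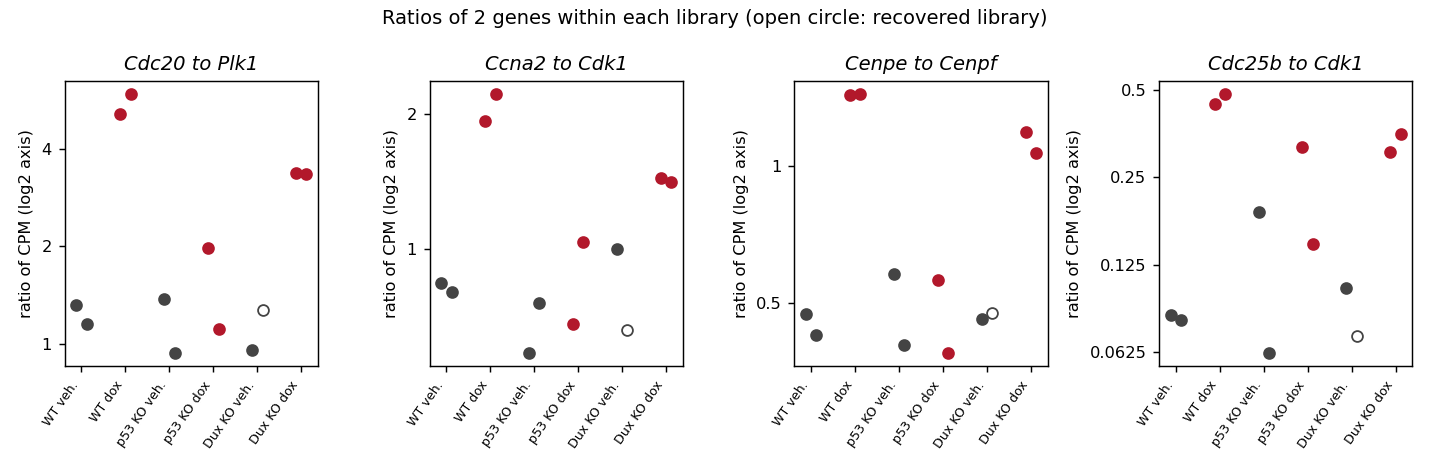
Ratio of the CPM of 2 members within each library (y axis, log2) in the 6 groups, where the open circle is the recovered library. Each ratio sets a member that rose in wild type over one that fell there, so the separation in wild type follows from that choice. In wild type and Dux KO the drug libraries stand above the vehicle libraries in all 4 ratios. In p53 KO the groups overlap in all 4, although within each line 3 of the 4 ratios are higher under drug.

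Under vehicle no member passed the test of p53 KO against WT, or of Dux KO against WT, in the edgeR fit. There 0.14% and 0.656% of all genes were called higher and 0.747% and 0.346% lower, or 0.887% and 1% either way. At an unadjusted p under 0.05, 5 members differed in p53 KO and 2 in Dux KO, and DESeq2 called 1 higher and 1 lower in p53 KO and 0 in Dux KO. Bub1 had the largest difference beside Pttg1, at 380 and 325 CPM in p53 KO against 188 and 207 CPM in WT. Its log2 difference was 0.83 ± 0.17, just short of passing (adjusted p = 0.063). Pttg1 was at 51 and 121 CPM in the p53 KO lines and 47.9 and 47.9 CPM in WT. With the line as a block, which here sets line 1 against WT, 12 members were higher and 2 lower in p53 KO, and 1 higher and 7 lower in Dux KO.

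Of a wider list of 80 other mitotic genes, 38 were lower and 16 higher in WT (median -0.37), beside 23.4% lower and 29% higher over all genes. Cenpt, a constitutive centromere protein, rose from 64.4 and 52.2 to 229 and 214 CPM (1.93 ± 0.26), and Kif18b, a kinesin that shortens astral microtubules, from 55.6 and 50.1 to 179 and 171 CPM (1.73 ± 0.15). Ckap2 rose by 1.47 and the mitotic kinase Pbk fell by 1.63. In p53 KO 20 were lower and 3 higher (all genes 8.09% and 9.31%), and in Dux KO 23 were lower and 12 higher (all genes 11.9% and 14.5%). In p53 KO Kif18b rose by 0.75, and Cenpt changed by 0.56 and Ckap2 by -0.33 without passing the test. The p53 KO response minus the WT response was -1.36 for Cenpt, -0.97 for Kif18b and -1.80 for Ckap2, and all 3 differences passed the interaction test. For Pbk it was 1.04 ± 0.45 and did not pass (adjusted p = 0.14). These genes were named for their large WT change, which enters the difference. Of the 80 genes, 10 differed upward and 12 downward, beside 9.9% and 10.3% of all genes.

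A list of 16 regulators of the programme held genes of the MuvB, DREAM and FOXM1 system and subunits of NF-Y. Of these, 6 fell and 3 rose in WT, and 1 fell and 0 rose in p53 KO. The 1 that fell in p53 KO was an NF-Y subunit. In Dux KO 4 fell, NF-Y subunits among them, and 1 rose. With so few genes and the shares over all genes given above, these counts are a description only. Mybl2 (B-Myb) fell in WT from 259 and 241 to 71.7 and 65.8 CPM (-1.86 ± 0.15), was at 309 and 331 CPM and then 302 and 234 CPM in p53 KO, and fell in Dux KO. The 2 responses of WT and p53 KO differed by 1.61 ± 0.20 (adjusted p = 0.0012). Foxm1 rose in WT from 58.7 and 51.6 to 100 and 100 CPM (0.86 ± 0.23), Rbl2 (p130) rose by 1.11 and Tfdp1 fell by 0.94. Their p53 KO response minus the WT response was -0.31, -0.71 and 0.44, and none passed (adjusted p = 0.55, 0.45 and 0.44). Of the 16 genes, 1 differed upward and 1 downward. The genes were named for their large WT change, which enters the difference. Of 10 genes listed as brakes before or early in mitosis, 5 rose and 3 fell in WT. In p53 KO 0 were called higher and 3 lower, and in Dux KO 4 rose and 2 fell. Over all genes 29%, 9.31% and 14.5% were called higher in WT, p53 KO and Dux KO. In the same order 23.4%, 8.09% and 11.9% were called lower, and 52.4%, 17.4% and 26.5% either way. Sfn (14-3-3 sigma) rose in WT from 7.69 and 6.81 to 64.8 and 73.6 CPM (3.25 ± 0.35), Rprm (Reprimo) by 3.24 and Btg2 by 2.68, and the checkpoint kinase Chek1 fell by 1.60. In p53 KO Sfn, Rprm and Btg2 changed by 0.98, 1.41 and 1.60 without passing the test (adjusted p = 0.07, 0.25 and 0.061), and Chek1 fell by 0.75. Rprm lay at or below 1.01 CPM in the WT vehicle libraries and at or below 0.347 CPM in p53 KO.

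Gene size and level ordered the members only weakly. Over the 38 genes Spearman's rho of the WT log2 change was -0.24 with gene span, -0.11 with the ratio of span to exonic length and 0.10 with the vehicle level per exonic kilobase, as a description over genes that share the same libraries. Dividing counts by FPKM gives lengths that match whole gene spans with introns, and whether strand was used in counting was not found in the sources.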

How the data were processed

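Poly(A) RNA of 12 libraries was measured. The authors deposited whole-number counts per Ensembl gene, FPKM values, and their own log2 fold changes with adjusted p-values. TopHat2, DESeq, DESeq2 and build mm10 are named in the submitters' processing notes, and their versions, the read counter and strand use were not found in the labels or files. Count and FPKM together imply a gene length within 1% of the whole span in 98.3% of 11047 genes. Between 26.4% and 33.4% of the counts from 500 upward were odd, so counts are not independent single reads. Average columns of FPKM (6) were not used.

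The counts of the second Dux KO vehicle library were left out. Its FPKM column gave whole reads (tolerance 0.15) for 99.92% of 3576 low values and 55637995 reads in all. In the other libraries the same steps matched the deposited count to 1 read or 1% in 96.5% of genes or more.

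Tests used edgeR 4.0.16 in R 4.3.3: TMM, filterByExpr (minimum count 10, all 38 members kept), a mean per group over 11 libraries, 5 residual degrees of freedom, glmQLFTest and Benjamini-Hochberg adjustment over 28643 genes. SE is the log2 change over the root of F. The test was checked on simulated counts with 200 changed genes of 28643. Sizes were recovered, but most changes of log2 0.5 were missed. In the data 52.4% of genes were called in WT, so the adjustment was harsher in the simulation. Its share of missed changes therefore does not measure the share missed here. Alternatives were RLE scaling, DESeq2 1.42.0, no filter, limma 3.58.1 on log2(FPKM + 1) or log2(FPKM + 0.1) over 12 libraries, the line as a block, the recovered library, and each library left out. Same-numbered knockout libraries come from the same line by their labels, and line differences correlated between vehicle and drug across genes (r = 0.668 in p53 KO, 0.211 in Dux KO). WT columns carry no number and took the level of line 1. The design text calls duplicates biological.

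The members and lists were chosen with earlier results of these data known. Values per library are given for the 10 largest WT falls, all WT rises, members of either interaction, Cdk1, Ccnb1, Plk1, Aurka, Aurkb and Mki67, and members that turn direction. At most 4 genes of each other list, those with the largest called WT change, are named.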

Additional observations from a re-analysis of the deposited data

Results flagged for a closer look

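In 7 members the response to doxorubicin differed between genotypes by the interaction test of edgeR. For p53 KO that was 15.8% of members, against 20.2% of all genes, and for Dux KO 1 member, against 5.25% of all genes. The members thus differed no more often than all genes. The p53 KO response minus the WT response was -1.02 for Cenpe, -0.81 for Hmmr, -0.78 for Bub1b, -0.69 for Anln, -0.66 for Ccna2 and 0.64 for Espl1. The Dux KO response minus the WT response was 1.02 for Aurkb, which lost its call when the recovered vehicle library was added. Of the p53 KO differences, Cenpe was kept in 19 of 21 alternatives, Hmmr in 17, Anln in 14, Espl1 in 13, Ccna2 in 10 and Bub1b in 9, and Aurkb in 12 of 20. Causes of these differences were not tested.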

How the results depend on the processing

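Shares called over all genes are not given for the alternatives, so their counts have no background beside them. Members lower in WT numbered 15, and 24 with the replicate block (8 to 17 without 1 library). Members higher in WT numbered 4 (1 to 4 without 1 library). In p53 KO 12 were lower, 21 with the block and 1 with limma on FPKM at either pseudocount or with no filter, and 0 were higher, 1 with the block with or without the recovered library. In Dux KO 9 were lower, 4 with limma on FPKM, 19 with the recovered library and the block, and 3 to 10 without 1 library. None was higher, against 1 with RLE, DESeq2 or the recovered library alone (added after seeing the data), 3 with limma on FPKM or with the block, and 0 to 2 without 1 library. The p53 KO difference had 1 higher, 0 with RLE, 5 or, with no filter, 6 with limma on FPKM, 4 with the block, 3 with block and recovered library, and 0 to 3 without 1 library. It had 5 lower, 2, 1 and 1 with limma at pseudocount 1, 0.1 and no filter, 8 with the block, and 1 to 7 without 1 library. The Dux KO difference had 1 higher, 2 with limma at pseudocount 0.1 or with the block, 0 with the recovered library added or alone, and 0 to 1 without 1 library, and it had 0 lower, 2 with DESeq2 or with the block. Under vehicle, p53 KO had 0 higher, 1 with RLE, DESeq2 or no filter, 12 with the block, 6 with block and recovered library, and 0 to 1 without 1 library, and 0 lower, 1 with DESeq2, 2 with the block and 1 with block and recovered library. Dux KO had 0 higher, 1 with the block, and 0 lower, 7 with the block and 1 with block and recovered library. Mki67 in Dux KO reversed to 0.13 and 0.14 with limma at pseudocount 1 and 0.1, 0.13 with no filter, and 0.33 with the recovered library alone. The cause was not tested. With the block but without the recovered library, the Dux KO response is drug library 1 against vehicle library 1. Its counts above therefore rest on 1 library against 1.

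Of the members called, 8 of 19 in WT, 1 of 12 in p53 KO and 2 of 9 in Dux KO kept their call in every alternative run, and no other called member reversed. The Dux KO comparisons have no value without vehicle library 1, the only such count library. With 2 libraries a group, changes of the size of most members' changes are at the limit of the test.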
